A study of Homo sapiens with 16 samples.

Results

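The genes described here were 9 genes of the MHC class I antigen presentation pathway: the heavy chain genes HLA-B and HLA-C, the light chain gene B2M, the transcriptional regulator NLRC5, the peptide trimming enzymes ERAP1 and ERAP2, and the peptide loading factors TAPBPL, CALR and PDIA3. They were chosen by name and found in the deposited table by matching its Ensembl identifiers to GENCODE symbols. All 9 were found among the 60649 identifiers of the table, and all 9 passed the filter on low counts that kept 19103 genes for testing. The cells were of ASC52telo, a telomerase-immortalised line of adipose mesenchymal stem cells (MSCs), so every library came from 1 cell line. Mitomycin C (MmC), a DNA alkylating agent used to make the cells senescent, was given at 1.5 µg/mL over 18 h, and GDF11, a secreted factor of the TGF-beta family, was given at 10 ng/mL through the 10 days that followed. The 4 groups were young MSCs that received neither agent (MmC-/GDF11-), young MSCs with GDF11 alone (MmC-/GDF11+), senescent MSCs with MmC alone (MmC+/GDF11-) and senescent MSCs with both agents (MmC+/GDF11+). Poly(A) RNA was sequenced in 16 libraries, 4 biological replicates in each group, and the labels place them all in 1 run. Batch effects are named among the study's limits, but the libraries they touched are not given in the sources used here.

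MHC class I molecules display short peptides from inside the cell on its surface, where CD8 T cells and natural killer cells read them. Each molecule is a heavy chain paired with beta-2 microglobulin and folded around a peptide in the endoplasmic reticulum, with the help of chaperones, a peptide transporter and enzymes that cut peptides to length. Transcription of the heavy chain and light chain genes is raised by interferons and NF-kappaB and by NLRC5, which acts at their promoters together with the RFX complex and NF-Y. MSCs carry class I molecules on their surface and little or no class II.

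On hg38 with GENCODE v44 models, the 9 genes lay on 6 chromosomes. HLA-B (ENSG00000234745, minus strand, chr6:31353872-31367067) and HLA-C (ENSG00000204525, minus strand, chr6:31268749-31272130) are neighbours in the major histocompatibility complex. B2M (ENSG00000166710, plus strand, chr15:44711358-44718851) and PDIA3 (ENSG00000167004, plus strand, chr15:43746394-43773279) share a chromosome, as do ERAP1 (ENSG00000164307, minus strand, chr5:96760810-96808100) and ERAP2 (ENSG00000164308, plus strand, chr5:96875986-96919703). NLRC5 (ENSG00000140853) is on the plus strand at chr16:56989485-57083531, TAPBPL (ENSG00000139192) on the plus strand at chr12:6451690-6466517 and CALR (ENSG00000179218) on the plus strand at chr19:12938578-12944489. All counts below are over the exons of these genes.

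The promoter sequences of B2M, HLA-B, HLA-C and CALR are shown because the regulators of this pathway act there, and because HLA-B was called after MmC while B2M was not. Each is the 250 bases before the RefSeq start (GRCh38.p14), written 5′ to 3′ on the strand of the gene. Capitals mark matches, on either strand, to the letters of 4 elements: the interferon-stimulated response element core GAAANNGAAA, the NF-kappaB element GGGNNNNNCC, the NF-Y box CCAAT and the endoplasmic reticulum stress element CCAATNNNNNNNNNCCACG. Where matches overlap, their capitals run together.
B2M, chr15:44711267-44711516, plus strand: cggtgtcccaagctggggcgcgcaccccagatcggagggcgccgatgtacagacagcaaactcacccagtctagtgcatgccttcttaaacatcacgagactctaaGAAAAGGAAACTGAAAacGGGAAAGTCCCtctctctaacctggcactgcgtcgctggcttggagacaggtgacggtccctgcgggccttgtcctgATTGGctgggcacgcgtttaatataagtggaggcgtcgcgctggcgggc
HLA-B, chr6:31357180-31357429, minus strand: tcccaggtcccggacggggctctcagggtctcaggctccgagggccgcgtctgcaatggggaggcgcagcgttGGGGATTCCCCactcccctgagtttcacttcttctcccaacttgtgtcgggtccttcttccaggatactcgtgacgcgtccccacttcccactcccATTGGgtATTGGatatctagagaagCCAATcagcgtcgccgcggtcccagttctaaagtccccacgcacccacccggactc
HLA-C, chr6:31272093-31272342, minus strand: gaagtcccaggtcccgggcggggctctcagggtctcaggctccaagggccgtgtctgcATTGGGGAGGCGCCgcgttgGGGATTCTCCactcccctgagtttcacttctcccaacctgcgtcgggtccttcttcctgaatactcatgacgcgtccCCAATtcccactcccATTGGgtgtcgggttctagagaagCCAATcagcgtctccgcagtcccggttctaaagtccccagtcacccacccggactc
CALR, chr19:12938359-12938608, plus strand: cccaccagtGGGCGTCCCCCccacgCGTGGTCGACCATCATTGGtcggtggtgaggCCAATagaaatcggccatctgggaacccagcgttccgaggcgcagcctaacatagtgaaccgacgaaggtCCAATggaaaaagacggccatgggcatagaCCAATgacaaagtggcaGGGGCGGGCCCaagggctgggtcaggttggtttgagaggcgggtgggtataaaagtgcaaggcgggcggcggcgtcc

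The B2M window held 2 overlapping matches to the interferon core, the nearer of them between 138 and 129 bases before the start, an NF-kappaB match just after them and 1 NF-Y match between 49 and 45 bases before the start. The HLA-B and HLA-C windows also held NF-kappaB and NF-Y matches, and they held no match to the interferon core in these letters. Looser forms of the interferon element were not searched, so this does not show that HLA-B and HLA-C lack one. HLA-B and HLA-C were identical at 226 of 246 aligned bases (91.9%). The NF-kappaB match of HLA-B lay between 177 and 167 bases before the start and could be read on both strands, and the corresponding match of HLA-C lay between 172 and 163 bases before its start. The CALR window held 1 match to the endoplasmic reticulum stress element, between 225 and 207 bases before the start, and 4 matches to the NF-Y box, of which 1 is part of that element. Of the other members with windows, ERAP2 held 1 interferon core (GAAAGTGAAA, 30 to 21 bases before the start of its second window), TAPBPL held 1 NF-kappaB match (GGGGATTTCC, in its second window), and ERAP1 held NF-kappaB and NF-Y matches in its first window. No member window held the STAT element TTCNNNGAA. Among 35116 promoter windows of all genes, the interferon core was in 3.02%, the NF-kappaB element in 54.4%, the STAT element in 6.57%, the NF-Y box in 32% and the endoplasmic reticulum stress element in 0.074%. The NF-kappaB and NF-Y letters are thus common, and a match shows no binding. The GENCODE models of B2M, HLA-C and CALR begin inside these windows. NLRC5 and PDIA3 had no entry in the promoter table.

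Library totals ranged from 71275337 to 144204979 counts, and even the member with the fewest counts, ERAP2, had 377 to 716 counts per library. Levels are given as CPM, the counts of a gene scaled to a common library size with TMM factors. All 7 MSC markers examined were counted, and NT5E (CD73) stood at 551 to 942 CPM. Summed over the 7 markers, the level was 10540 to 17591 CPM in MmC-/GDF11-, 10479 to 14232 in MmC-/GDF11+, 7319 to 12396 in MmC+/GDF11- and 7037 to 12732 in MmC+/GDF11+. The 5 blood and immune cell markers summed to 9.57 to 21.7 CPM, 9.63 to 16.0 CPM, 10.2 to 19.1 CPM and 9.72 to 17.9 CPM in the same order, with CD3E at no more than 0.0699 CPM in any library. The 4 endothelial markers summed to 47.5 to 75.8 CPM, 50.3 to 82.3 CPM, 58.7 to 111 CPM and 54.2 to 109 CPM, and the 4 epithelial markers to 48.7 to 82.3 CPM, 49.9 to 77.0 CPM, 15.1 to 17.8 CPM and 12.5 to 20.7 CPM, with EPCAM and KRT5 at no more than 0.0583 and 0.0223 CPM. The highest marker of these 3 lists was CD34 (6.81 to 19.1 CPM), TEK (38.2 to 103 CPM) and KRT14 (11.8 to 81.4 CPM). The mean of KRT14 was 60.4 CPM in MmC-/GDF11- and 15.8 CPM in MmC+/GDF11-, and 65.1 and 15.6 CPM with GDF11. After MmC without GDF11, 2 MSC markers were higher and 2 lower, 2 blood and immune markers and 2 endothelial markers were higher, and 1 endothelial and 1 epithelial marker were lower. With GDF11, 3 MSC markers were higher and 1 lower after MmC, 3 blood and immune and 2 endothelial markers were higher, and 1 endothelial and 1 epithelial marker were lower. Over all genes, 45.3% were called after MmC without GDF11 and 46.7% with it. The part of these markers in the results below was not tested. In these bulk libraries, fewer cells with a transcript and less of it per cell cannot be told apart.

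The reference holds alternate contigs, which repeat stretches of the genome, and a read that matches such a copy as well as the main chromosome can be left uncounted. Of the 31-base words in the exons of each gene, 95.9% of those of B2M, 95.5% of those of HLA-C and 84.6% of those of HLA-B also occurred on the 261 alternate contigs of hg38. The share was 11.8% for PDIA3, 3.91% for ERAP2, 2.82% for CALR, 0.728% for ERAP1, 0.519% for TAPBPL and 0.307% for NLRC5. Genes of the same pathway whose words were all on alternate contigs, HLA-E, TAP1, TAPBP, PSMB8 and PSMB9, were counted at no more than 0.779 CPM in any library. A full match to alternate contigs did not always go with a low level, since the interferon-response gene IFI27, at 100%, was at 1.03 to 30.6 CPM. HLA-F, whose match of 97.7% was not full, was at 3.37 to 7.42 CPM. The words of B2M that were on no alternate contig fell in 4 short runs, of which 1 (chr15:44717784-44717844) lay in the exons of its main transcript, outside the coding sequence. Those of HLA-C also fell in 4 runs, of which 1 lay wholly in an exon of its main transcript, outside the coding sequence. A further run (chr6:31271294-31271354) touched the coding sequence without lying wholly in an exon. HLA-B had 23 runs, of which 5 lay wholly in exons of its main transcript and touched the coding sequence. Further runs of HLA-B touched it without lying wholly in an exon. The authors' index and their handling of reads with several matches are not given in the sources used here, so the levels of B2M, HLA-B and HLA-C are those of the reads that were counted, and the share lost cannot be known from the table. Between paralogs, 11.4% of the words of HLA-C occurred in HLA-B and 6.12% of those of HLA-B in HLA-C, so reads could also be split between these genes, whereas ERAP1 and ERAP2 shared none. Exons of HLA-B overlapped a pseudogene on the same strand, DHFRP2, over 30.7% of their length, and exons of TAPBPL overlapped VAMP1 on the opposite strand over 10.6%. The strand setting of the counting is not given in the sources used here.

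**Figure D1:**
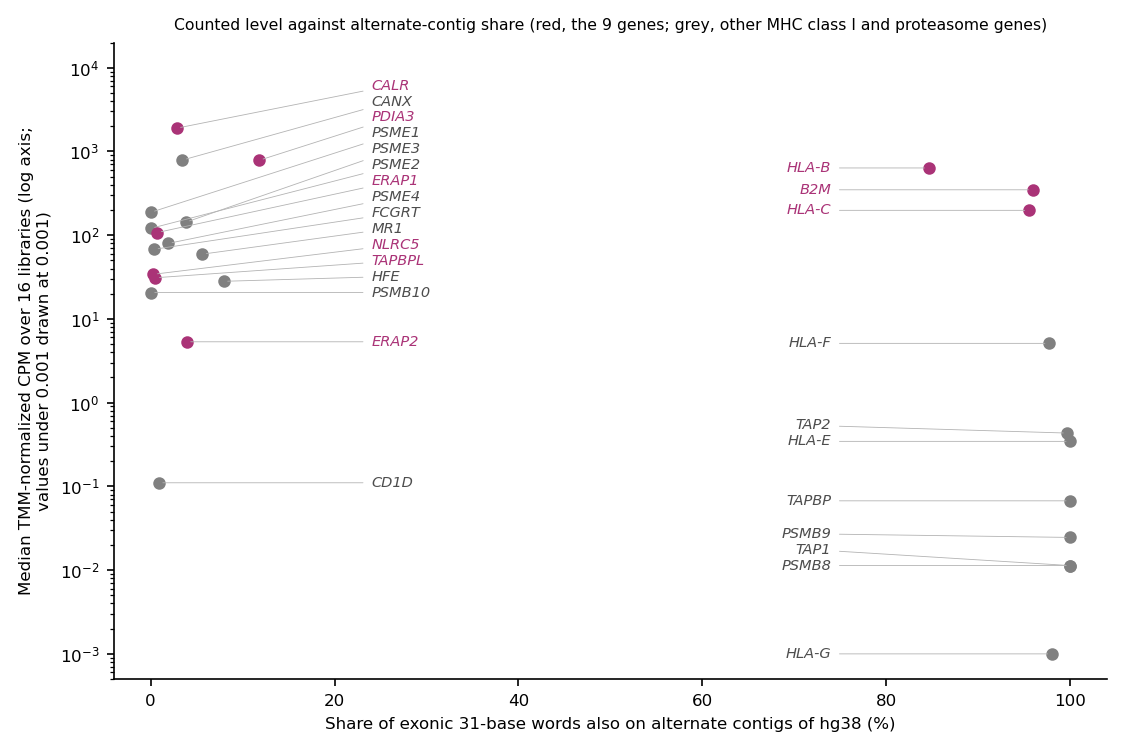
Median level over 16 libraries in TMM-scaled CPM (vertical log axis) against the share of exonic 31-base words that also occur on alternate contigs of hg38 (horizontal axis, %), for the 9 genes (red) and other class I, peptide transport and proteasome genes (grey). HLA-B, B2M and HLA-C sit at the right with shares of 84.6% to 95.9%, the other 6 members sit at 11.8% or less, and the grey genes at 100% lie under 1 CPM.

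Per kilobase of exon, the order of the mean levels over all libraries was CALR (663 CPM per kb), HLA-B (141), B2M (109.8), HLA-C (78.3), PDIA3 (65.5), ERAP1 (13.7), TAPBPL (9.97), NLRC5 (2.88) and ERAP2 (0.788). With the length of the longest transcript in place of all annotated exons, PDIA3 moved from the fifth to the second place. In MmC-/GDF11-, B2M (103 ± 19.9 CPM per kb, SD, n = 4) and HLA-B (103 ± 18.9) did not differ beyond their spread, nor did HLA-C (70.2 ± 12.7) and PDIA3 (61.3 ± 4.54) by the length of all annotated exons. By the longest transcript PDIA3 stood at 195 and HLA-C at 93.6 CPM per kb in that group, so the place of PDIA3 depends on the length used. In MmC+/GDF11-, HLA-B at 181 ± 16.9 CPM per kb stood above B2M at 113 ± 21.0. These are levels of counted reads. The share of words on alternate contigs was 84.6% for HLA-B, 95.9% for B2M and 95.5% for HLA-C, so the order of their transcripts cannot be read from them.

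After MmC, the heavy chain transcripts HLA-B and HLA-C and the peptide editor TAPBPL were higher and NLRC5 was lower, with and without GDF11. PDIA3 was higher after MmC in the cells given GDF11. B2M, ERAP1, ERAP2 and CALR did not pass the test in either comparison. HLA-B, had the largest change among the 9, and the other called genes stood at 1.24- to 1.38-fold, or at 0.761- and 0.767-fold for NLRC5. In numbers, 3 of the 9 genes were higher and 1 was lower after MmC without GDF11 at an adjusted p under 0.05, from edgeR's quasi-likelihood test with Benjamini-Hochberg adjustment over all 19103 genes. MmC changed much of the transcriptome: 45.3% of all genes were called in this comparison, 22.9% higher and 22.4% lower, and in 37.3% the 4 libraries with MmC did not overlap the 4 without. With the replicate number as a block, PDIA3 was also called in this comparison, which made 4 higher and 1 lower. The block also raised the number called over all genes, to 11066 of 19103. After MmC with GDF11, 4 of the 9 genes were higher and 1 was lower, against 46.7% of all genes called, 23.4% higher and 23.3% lower, with 41.5% of all genes not overlapping. The median log2 fold change of the 9 genes was 0.13 without GDF11 and 0.12 with it, beside -0.01 over all genes in both comparisons. The share of the 9 genes called was near the share of all genes, so the count alone does not set them apart.

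**Figure D2:**
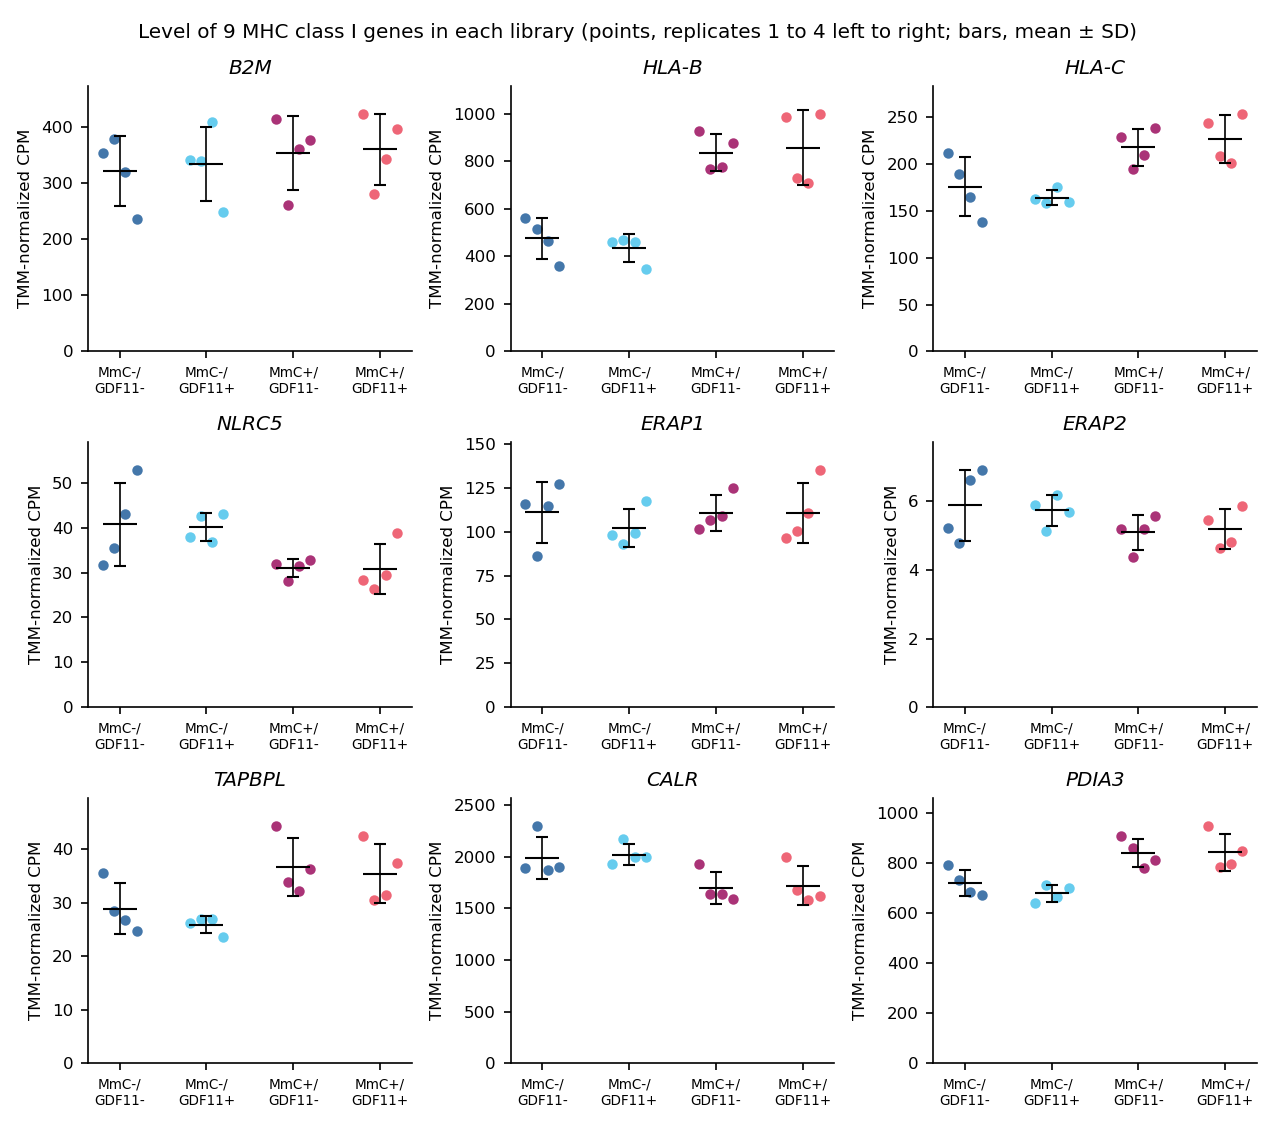
TMM-scaled CPM (vertical axes, from 0) of each of the 9 genes in the 16 libraries, by group; points are replicates 1 to 4 from left to right, the long bar is the mean and the error bars are the SD (n = 4). HLA-B is the gene whose groups with MmC lie clear of those without in both comparisons: 708 to 996 CPM against 344 to 562.

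HLA-B encodes a heavy chain, the part of the molecule that holds the peptide. Its level in replicates 1 to 4 was 562, 516, 463 and 358 CPM in MmC-/GDF11- and 926.5, 767, 774 and 875 CPM in MmC+/GDF11-. Every library with MmC stood above every library without it. The change was 1.76-fold (log2 fold change 0.82, SE 0.157, 95% interval 0.48 to 1.15, adjusted p = 0.000575). With GDF11 the values were 460.1, 469, 461 and 344 CPM in MmC-/GDF11+ and 987, 729.9, 708 and 996 CPM in MmC+/GDF11+, and the groups again did not overlap. The change with GDF11 was 1.97-fold (log2 0.98, SE 0.157, 95% interval 0.65 to 1.31, adjusted p = 0.000124). HLA-B remained called under all 29 alternatives in each comparison, of which 9 changed the settings and 20 left out a library or a replicate number.

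HLA-C encodes another heavy chain, the main ligand of the inhibitory receptors of natural killer cells. It was at 212, 189, 165 and 138 CPM in MmC-/GDF11- and at 229, 194, 209 and 238 CPM in MmC+/GDF11-. The groups overlapped, since replicate 1 without MmC was above replicates 2 and 3 with it. The change was 1.24-fold (log2 0.31, SE 0.121, 95% interval 0.05 to 0.56, adjusted p = 0.0474), close to the threshold. The call was lost without MmC-/GDF11- replicate 3 (adjusted p = 0.106) or 4 (0.135), without MmC+/GDF11- replicate 1 (0.0801), 3 (0.0657) or 4 (0.110), and by a narrow margin without any one of the 4 MmC-/GDF11+ libraries (0.0502 to 0.0507). It was also lost when replicate 2, 3 or 4 was left out of every group (0.0594, 0.158 and 0.277), with no filter on low counts (0.0724) and in a fit of only the libraries compared (0.0950). With GDF11, HLA-C was at 163, 159, 176 and 159.9 CPM without MmC and at 244, 208, 202 and 253 CPM with it. These groups did not overlap, and the change was 1.38-fold (log2 0.47, SE 0.121, 95% interval 0.21 to 0.72, adjusted p = 0.00506), called under all 29 alternatives.

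B2M encodes the light chain, which every class I heavy chain needs to reach the surface. Its level was 354, 378, 320.0 and 236 CPM in MmC-/GDF11-, 342, 339, 409 and 248 CPM in MmC-/GDF11+, 414, 261, 361 and 377 CPM in MmC+/GDF11- and 422, 279.7, 343 and 396 CPM in MmC+/GDF11+. The 4 groups overlapped throughout, and the lowest value was replicate 4 in both young groups and replicate 2 in both senescent groups. The log2 fold change was 0.13 (SE 0.184, 95% interval -0.26 to 0.52, adjusted p = 0.581) without GDF11 and 0.11 (SE 0.184, 95% interval -0.28 to 0.50, adjusted p = 0.663) with it. The upper bounds correspond to 1.44- and 1.41-fold, so for the counted reads a rise of the size seen for HLA-B lay outside both intervals. The intervals do not cover reads left uncounted, and 95.9% of the words of B2M also occur on alternate contigs. Whether such reads changed alike was not tested.

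NLRC5 encodes the transactivator of class I genes. It was counted at 31.7, 35.6, 43.1 and 52.7 CPM in MmC-/GDF11- and at 31.8, 28.2, 31.5 and 32.7 CPM in MmC+/GDF11-. The senescent libraries were close together and the young libraries were spread, so that replicate 1 without MmC lay among those with it. NLRC5 fell by 0.39 on the log2 scale (SE 0.144, 95% interval -0.70 to -0.09, adjusted p = 0.0346), to 0.761-fold. With GDF11 it was at 37.99, 42.5, 36.8 and 43.1 CPM without MmC and at 28.4, 26.3, 29.6 and 38.8 CPM with it, and only replicate 4 with MmC overlapped the young libraries. It fell by 0.38 on the log2 scale (SE 0.144, 95% interval -0.69 to -0.08, adjusted p = 0.0387), to 0.767-fold. NLRC5 was therefore lower while HLA-B and HLA-C were higher in the same libraries. The call without GDF11 was lost without MmC-/GDF11- replicate 3 (adjusted p = 0.0835) or 4 (0.163) and without MmC+/GDF11- replicate 2 (0.0976), 3 (0.0623) or 4 (0.0533), and when replicate 2, 3 or 4 was left out of every group (0.0860, 0.174 and 0.110). It was also lost with at least 10 counts required in every library (0.0567) and in a fit of only the libraries compared (0.0635). The call with GDF11 was lost without MmC-/GDF11- replicate 3 (0.0528), MmC-/GDF11+ replicate 1 (0.0548), 2 (0.0965) or 4 (0.0983), MmC+/GDF11- replicate 4 (0.0528) or MmC+/GDF11+ replicate 1 (0.0823), 2 (0.131) or 3 (0.0966), and without replicate 1, 2 or 3 in every group (0.0529, 0.213 and 0.154). Upper-quartile scaling (0.0584) and the stricter filter (0.0683) also ended it. The sign was negative in all of these fits.

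ERAP1 and ERAP2 encode the aminopeptidases that trim peptides inside the endoplasmic reticulum to the length class I molecules hold. ERAP1 was at 116, 86.2, 115 and 127 CPM in MmC-/GDF11-, 98.1, 92.9, 99.5 and 118 CPM in MmC-/GDF11+, 101, 107, 109 and 125 CPM in MmC+/GDF11- and 96.6, 100.1, 110.4 and 135 CPM in MmC+/GDF11+. These ranges lay on each other. The log2 fold change after MmC was -0.01 (SE 0.128, 95% interval -0.28 to 0.26, adjusted p = 0.971) without GDF11 and 0.12 (SE 0.128, 95% interval -0.16 to 0.39, adjusted p = 0.484) with it. ERAP2 was the lowest of the 9 genes, at 5.21, 4.78, 6.63 and 6.90 CPM in MmC-/GDF11- and 5.21, 4.39, 5.20 and 5.58 CPM in MmC+/GDF11-. With GDF11 it was at 5.91, 5.15, 6.20 and 5.68 CPM without MmC and 5.46, 4.63, 4.81 and 5.87 CPM with it. Its mean was lower with MmC but the groups overlapped, and the log2 fold change was -0.21 (SE 0.134, 95% interval -0.49 to 0.08, adjusted p = 0.223) and -0.14 (SE 0.134, 95% interval -0.43 to 0.14, adjusted p = 0.401).

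TAPBPL encodes TAPBPR, a relative of tapasin that exchanges peptides on class I molecules. It was at 35.6, 28.6, 26.8 and 24.7 CPM in MmC-/GDF11- and at 44.3, 34.0, 32.2 and 36.4 CPM in MmC+/GDF11-. Replicate 1 was the highest of each group, and that of the young cells overlapped the senescent ones. The rise was 1.27-fold (log2 0.34, SE 0.132, 95% interval 0.06 to 0.62, adjusted p = 0.0431). The call was lost without MmC-/GDF11- replicate 2 (0.0745), 3 (0.0994) or 4 (0.113) or MmC+/GDF11- replicate 1 (0.128) or 4 (0.0623), without replicate 2, 3 or 4 in every group (0.101, 0.103 and 0.172), with no filter (0.0573) and with only the libraries compared (0.0679). With GDF11 it was at 26.3, 27.0, 27.0 and 23.6 CPM without MmC and 42.5, 30.5, 31.5 and 37.5 CPM with it, and the groups did not overlap. That rise was 1.37-fold (log2 0.45, SE 0.132, 95% interval 0.17 to 0.73, adjusted p = 0.0106), and of 29 alternatives only leaving replicate 4 out of every group took it past the threshold (0.0686).

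CALR and PDIA3 encode calreticulin, a chaperone that holds newly made glycoproteins, and ERp57, a disulfide isomerase, which work together in the peptide loading complex. PDIA3 was at 791, 735, 686 and 674 CPM in MmC-/GDF11- and 908, 861, 783 and 812 CPM in MmC+/GDF11-, with overlap only between the highest young and the lowest senescent library. Its log2 fold change was 0.22 (SE 0.0942, 95% interval 0.02 to 0.42, adjusted p = 0.0656). Within each replicate number PDIA3 was higher with MmC in 4 of 4 pairs, by 0.19 to 0.27 on the log2 scale. With the replicate number as a block, which the libraries of this comparison followed, the change was 0.22 (SE 0.0790) and passed the test (adjusted p = 0.0258). It also passed without MmC-/GDF11- replicate 1 (0.0300), without MmC+/GDF11+ replicate 1 (0.0458) and without replicate 1 in every group (0.0454), as well as with RLE scaling (0.0473), upper-quartile scaling (0.0426), the stricter filter on low counts (0.0262) and DESeq2 (0.013). With GDF11, PDIA3 was at 641, 712, 663 and 703 CPM without MmC and 947, 784, 795 and 849.8 CPM with it, without overlap. It rose 1.24-fold (log2 0.31, SE 0.0942, 95% interval 0.11 to 0.51, adjusted p = 0.0126), and the call was lost only when replicate 3 was left out of every group (0.0572). CALR, the highest of the 9 by counted reads, was at 1891, 2292, 1872 and 1898.5 CPM in MmC-/GDF11- and 1924, 1639, 1639 and 1591 CPM in MmC+/GDF11-. Replicate 1 with MmC lay within the young range and the other 3 lay under it. With GDF11 CALR was at 1926, 2166, 1993 and 1995 CPM without MmC and 1999.7, 1675, 1581 and 1624 CPM with it, where replicate 1 again stood apart from the other 3. The log2 fold change was -0.23 in each comparison (SE 0.111 in both, 95% intervals -0.46 to 0.01 and -0.47 to 0.00, adjusted p = 0.105 and 0.0963). Without replicate 1 in every group it was -0.32 (adjusted p = 0.0209) and -0.33 (adjusted p = 0.0161), and without MmC+/GDF11+ replicate 1 alone the change with GDF11 was -0.30 (adjusted p = 0.0349).

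**Figure D3:**
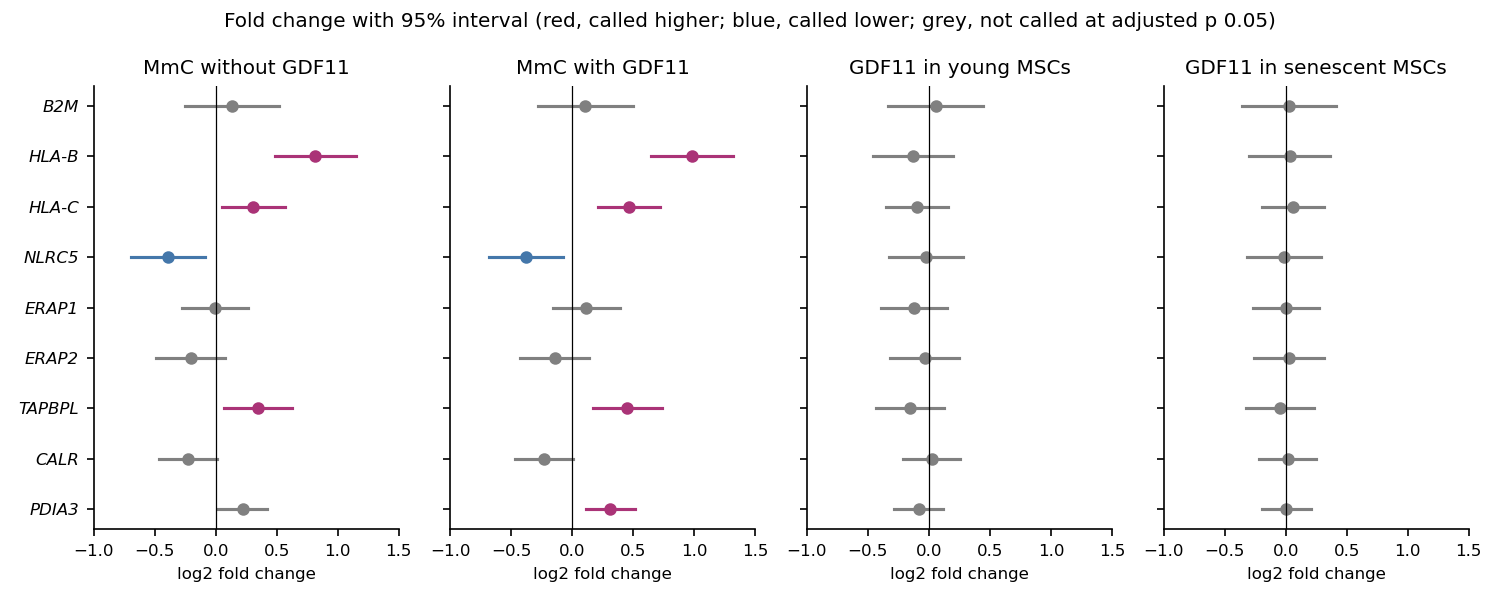
Log2 fold change (points) with its 95% interval (lines) for each of the 9 genes in the 4 pairwise comparisons, 4 libraries in each group; red, called higher, blue, called lower, grey, not called at an adjusted p of 0.05. After MmC the intervals of HLA-B lie farthest from 0 (0.48 to 1.15 and 0.65 to 1.31), and for GDF11 every interval includes 0.

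**Figure D4:**
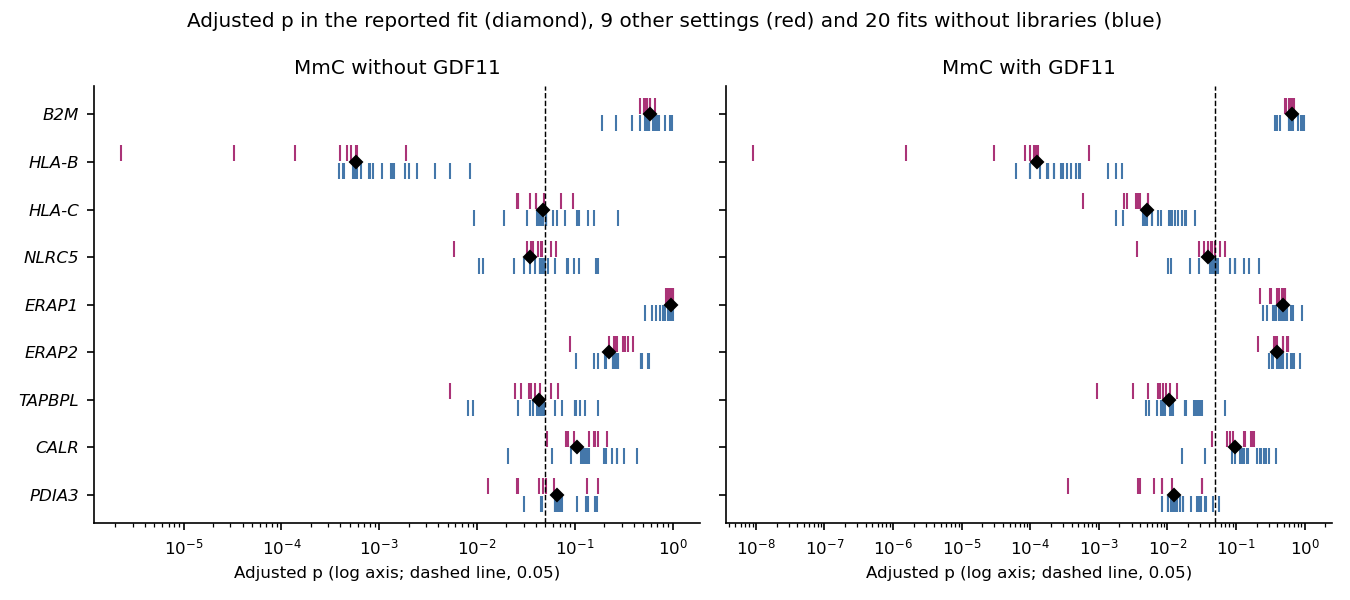
Adjusted p (horizontal log axis; dashed line, 0.05) of each of the 9 genes after MmC in the reported fit (diamonds), under 9 other settings (red ticks) and in 20 fits that leave out a library or a replicate number (blue ticks). All ticks of HLA-B lie left of the line in both panels, as do those of HLA-C with GDF11, while those of HLA-C, NLRC5 and TAPBPL without GDF11 lie on both sides.

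Ratios of members within a library do not depend on how libraries are scaled. They are given as a description, since the pairs were chosen after the values were seen, and as ratios of CPM, not per length, so only the difference between groups can be read. The ratio of HLA-B to HLA-C was 2.60 to 2.81 in MmC-/GDF11- and 3.67 to 4.04 in MmC+/GDF11-, and 2.15 to 2.95 and 3.50 to 4.04 with GDF11. HLA-B thus gained on its paralog in every senescent library. The ratio of HLA-B to B2M was 1.36 to 1.59 and 2.14 to 2.94 without GDF11, and 1.13 to 1.39 and 2.07 to 2.61 with it. These are ratios of counted reads, and any reads of HLA-B, HLA-C or B2M lost to alternate contigs are not in them. The ratio of PDIA3 to CALR moved from 0.321 to 0.418 up to 0.472 to 0.525 without GDF11, and from 0.329 to 0.352 up to 0.468 to 0.523 with it, although replicate 1 of CALR stood apart in level. The ratio of ERAP1 to ERAP2 overlapped between young and senescent libraries, at 17.3 to 22.2 and 19.5 to 24.3 without GDF11.

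GDF11 was given to ask whether it alters young or senescent MSCs, and no change of the 9 genes by GDF11 was detected. By edgeR's quasi-likelihood test 0 of the 9 genes were called in young MSCs and 0 in senescent MSCs, beside 0% of all genes in each. At an unadjusted p under 0.05, edgeR, limma-voom and DESeq2 each called 0 of the 9 in either comparison. Over all genes the unadjusted counts were 226, 200 and 197 in young MSCs and 96, 94 and 62 in senescent MSCs by the 3 tools in that order, and DESeq2 called 1 gene in young MSCs after adjustment. The libraries with and without GDF11 overlapped for all 9 genes, where 0.89% of all genes did not overlap in young and 0.503% in senescent MSCs. The log2 fold changes of the 9 genes lay between -0.16 (TAPBPL, 95% interval -0.44 to 0.12) and 0.06 (B2M, 95% interval -0.33 to 0.44) in young MSCs, and between -0.05 (TAPBPL, 95% interval -0.33 to 0.23) and 0.06 (HLA-C, 95% interval -0.20 to 0.31) in senescent MSCs. For HLA-B the intervals were -0.46 to 0.20 and -0.30 to 0.36, which leave room for a change of up to 1.29-fold upward in senescent MSCs. These intervals are from the fit without a block. Between same-numbered senescent libraries, HLA-B differed by -0.13 to 0.19 on the log2 scale, with 2 of 4 differences above 0. The effects of MmC with and without GDF11 share no libraries, and their difference was tested as an interaction. It was called for 0 of the 9 genes by edgeR, beside 0% of all genes, and no member had an unadjusted p under 0.05 by any of the 3 tools, against 172, 150 and 137 of all genes. The interaction was 0.17 for HLA-B (95% interval -0.30 to 0.63), 0.16 for HLA-C (95% interval -0.20 to 0.52) and 0.09 for PDIA3 (95% interval -0.19 to 0.37). PDIA3 was called with GDF11, and without GDF11 only under 8 of 29 alternatives, the block among them (adjusted p = 0.0258). It was thus not shown to differ between the comparisons.

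The other genes of the pathway were counted from lists chosen by function. The share of all genes called after MmC was 45.3% without GDF11 and 46.7% with it. Of 11 other class I and class I-like chains and peptide transport genes, 8 could be tested. After MmC without GDF11, 4 were higher and 0 lower (median log2 fold change 0.38), and with GDF11 5 were higher and 0 lower (median 0.54). The chaperone gene CANX rose by 0.55 and 0.50 (adjusted p = 5.57e-05 and 0.000131), and MR1, which presents vitamin metabolites, by 0.59 and 0.57 (adjusted p = 0.0409 and 0.0462). FCGRT, the neonatal Fc receptor chain, rose by 0.60 and 0.62 (adjusted p = 0.0226 and 0.0188). CD1D was also called, at no more than 0.273 CPM in any library. HLA-E was called with GDF11 only (1.47, adjusted p = 0.00691, against -0.05, adjusted p = 0.926), on 10 to 73 counts per library, and its interaction was 1.52 with an adjusted p of 1.00. All exonic words of HLA-E are on alternate contigs.

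Of 5 tested immunoproteasome and proteasome activator genes, 0 were higher and 2 lower in each MmC comparison: PSMB10, an inducible catalytic subunit, fell by 0.79 and 0.73 on the log2 scale (adjusted p = 4.2e-05 and 8.5e-05), and PSME1, a subunit of the PA28 activator, fell by 0.39 and 0.41 (adjusted p = 0.0152 and 0.0121). PSMB8 and PSMB9 could not be tested. Of 3 constitutive catalytic subunits, 1, PSMB6, was lower (-0.54 and -0.63, adjusted p = 0.00329 and 0.00101). Of 7 other peptide trimming enzymes, 0 were higher and 2 lower without GDF11 and 1 was higher and 2 lower with it. BLMH, bleomycin hydrolase, fell by 1.17 and 1.10 (adjusted p = 2.47e-07 and 4.74e-07), and TPP2 fell by 0.46 and 0.48 (adjusted p = 0.000241 and 0.000152). The medians of these lists were -0.17, -0.31 and -0.20 without GDF11, beside -0.01 over all genes. With 45.3% of all genes called without GDF11 and 46.7% with it, the counts alone do not set these lists apart.

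Of 13 regulators of class I transcription, 2 were higher and 5 lower in each MmC comparison, with a median log2 fold change of -0.28 without GDF11 and -0.21 with it. The share of the 13 called was near that of all genes, 45.3% without GDF11 and 46.7% with it. The 3 subunits of the RFX complex, with which NLRC5 works, were all lower: RFX5 (log2 fold change -0.28 without and -0.29 with GDF11, adjusted p = 0.0255 and 0.0184), RFXAP (-0.74 and -0.33, adjusted p = 3.82e-05 and 0.0146) and RFXANK (-0.78 and -0.82, adjusted p = 0.000143 and 9.59e-05). The NF-Y subunit gene NFYB was lower (-0.81 and -0.64, adjusted p = 0.00027 and 0.00153), and IRF2 was lower (-0.35 and -0.24, adjusted p = 0.000766 and 0.0100). The 2 that were higher were STAT2 (0.37 and 0.42, adjusted p = 0.0210 and 0.00943), a signal carrier of interferon receptors, and RELA (0.41 and 0.44, adjusted p = 0.00165 and 0.00103), the NF-kappaB subunit. The interferon-response list also holds the interferon receptor genes IFNGR1 and IFNAR1. Of its 15 tested genes, 13 were higher and 1 lower without GDF11 (median 1.07), and 10 were higher and 0 lower with it (median 0.79). Examples were IFI6 (1.79 and 1.39, adjusted p = 1.61e-05 and 0.000133), ISG15 (1.24 and 0.85, adjusted p = 0.00173 and 0.0171) and OAS1 (1.28 and 1.23, adjusted p = 0.0036 and 0.00462). GBP2 was the 1 lower gene (-0.73, adjusted p = 0.0352). IFNB1, the gene of interferon beta, was not tested and stood at no more than 0.107 CPM in any library.

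Of 12 endoplasmic reticulum chaperones, 5 were higher and 1 lower without GDF11 and 6 were higher and 1 lower with it. Over all genes, 45.3% and 46.7% were called. The median of the chaperones was 0.21 without GDF11 and 0.22 with it. PDIA3 was at 0.22 and 0.31, near the median without GDF11, and CALR was at -0.23 in each comparison, below it. HSPA5 (BiP) rose by 0.41 and 0.39 (adjusted p = 0.00792 and 0.00984) and P4HB, a disulfide isomerase like PDIA3, by 0.58 and 0.61 (adjusted p = 0.000393 and 0.000244), while SDF2L1 was at -0.49 and -0.65 (adjusted p = 0.0154 and 0.00254). Of 8 MHC class II genes, 2 could be tested and both fell: CIITA, the class II transactivator and relative of NLRC5, to 0.269- and 0.220-fold (adjusted p = 2.42e-05 and 7.09e-06) and CD74, the invariant chain, by 1.44 and 1.17 on the log2 scale (adjusted p = 0.000279 and 0.00136). No gene of any of these lists was called for GDF11 or for the interaction.

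**Figure D5:**
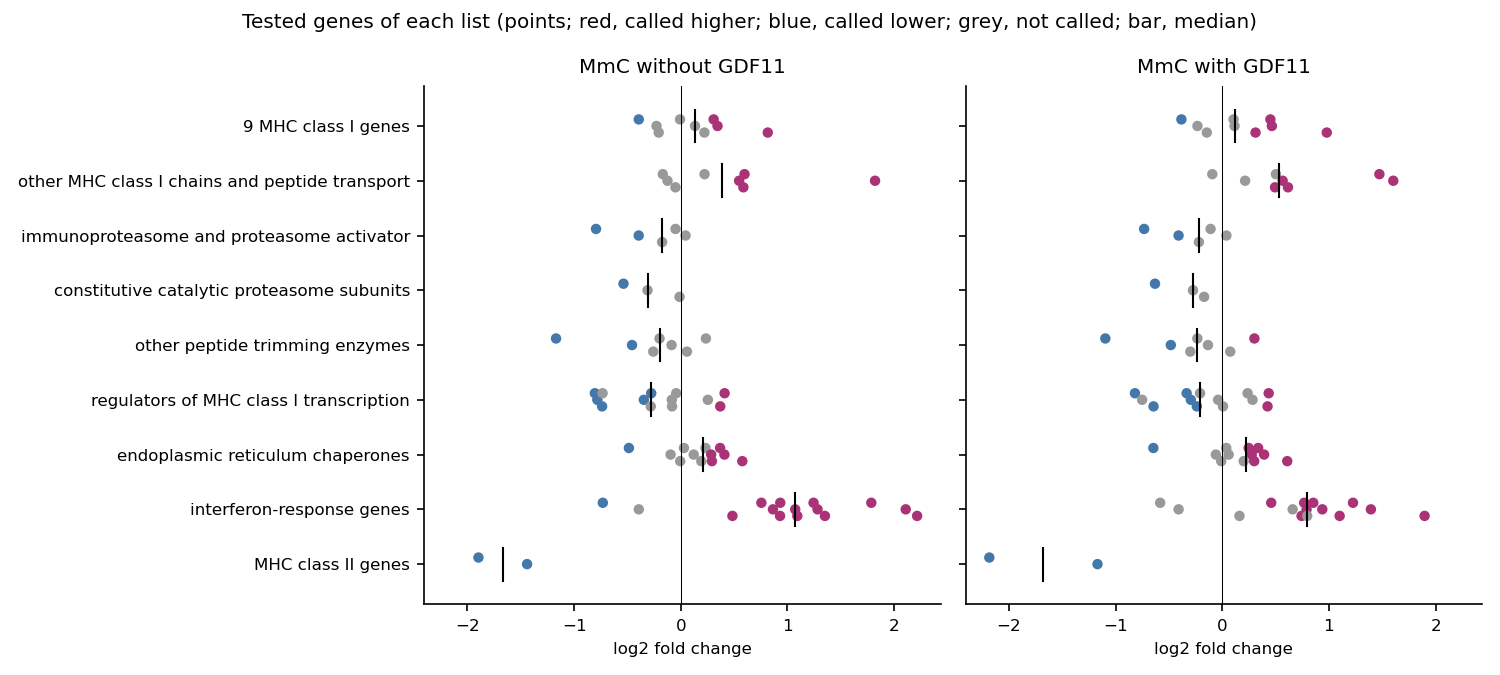
Log2 fold change after MmC without GDF11 (left) and with GDF11 (right) of the tested genes of each list (points; red, called higher, blue, called lower, grey, not called; vertical bars, list medians). The 9 genes spread on both sides of 0 with a median of 0.13 and 0.12. The interferon-response list, which includes receptor genes, has medians of 1.07 and 0.79, and both tested class II genes are lower.

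The protein-coding genes whose pattern over the 16 libraries was most like that of each member were found by the root mean square difference of log2 CPM, centred on each gene's mean, among 10962 genes. For HLA-B they were PLD3 (0.121) and GNPTG (0.125), for HLA-C ANKDD1A (0.106) and BTN3A3 (0.108), and for B2M XKR3 (0.132) and CD63 (0.141). They were NAA15 (0.116) and CNOT6 (0.117) for NLRC5, PHIP (0.0619) and CREBBP (0.0622) for ERAP1, and ZNF655 (0.0836) and AGO4 (0.0928) for ERAP2. For TAPBPL they were GGT7 (0.0748) and SUMF1 (0.0754), for CALR COPS7A (0.0549) and SMIM7 (0.0549), and for PDIA3 PRCP (0.0517) and SLC39A11 (0.0597). Among the 9 themselves the closest pair was HLA-C with TAPBPL (0.113), then PDIA3 with TAPBPL (0.130), and the farthest was HLA-B with NLRC5 (0.714). HLA-B and HLA-C, neighbours with 91.9% of aligned promoter bases identical, were 0.277 apart, and HLA-B and B2M 0.416.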

How the data were processed

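Per the labels and the study's methods, the authors aligned reads to hg38 with HISAT2 2.2.1 and assigned them to GENCODE 38 genes with featureCounts 2.0.1. The deposited table holds raw counts per gene, without normalization. The strand setting and the treatment of reads with several matches are not given in the sources used here. At 71275337 counts or more in a library, counting error was small for the 9 genes, and the spread between replicates set the precision.

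Of 60649 identifiers, 60507 matched a GENCODE v44 symbol. Testing used edgeR 4.0.16 under R 4.3.3: filterByExpr (minimum count 10, minimum total 15), TMM scaling and a robust quasi-likelihood fit over the 16 libraries with 1 mean per group and no block. The standard error was the absolute log2 fold change over the square root of F. P-values were adjusted over 19103 genes by Benjamini-Hochberg, with 0.05 as threshold. They weigh a difference between groups against the spread between these replicates of 1 cell line. Likeness used log2 CPM with a prior count of 2, among genes with a mean of at least 1. The fitting code was tested on simulated data.

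The alternatives changed the scaling (RLE, upper quartile), the filter (none, or 10 counts as the minimum in each library), the set of libraries fitted, the block, the robust step or the tool (voom in limma 3.58.1, DESeq2 1.42.0), or left out a library or a replicate number. Pairing by replicate number was checked from the correlation of same-numbered libraries in their deviations from group means. Every pair was above 0.1 for MmC without GDF11 (lowest 0.113) and GDF11 in senescent MSCs (lowest 0.448), so there the blocked value is given beside a result whose call it changes, although the reported fit stays without a block. The lowest was 0.0293 for MmC with GDF11 and 0.0982 for GDF11 in young MSCs.

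Words of 31 bases, or 75 as an alternative, were searched on the alternate contigs of hg38. Promoters came from RefSeq (GRCh38.p14), with 10 windows for 7 of the 9 genes. The genes named were the 9 members, genes of the function lists and the 2 genes most like each member. The members and lists were chosen with earlier results of these data known. Protein sequences were not used here. Some genes of the lists are not reported here and were left out of their counts.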

Additional observations from a re-analysis of the deposited data

Results flagged for a closer look

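In 36 groups of 4 libraries (9 genes in 4 groups), 3 libraries stood apart from the other 3 of their group by more than Dixon's 95% limit, and chance gives about 1 in 20 groups. HLA-B in MmC-/GDF11+ replicate 4 was at 344.3 CPM, where the others were at 460.1 to 468.8 CPM. Without that library HLA-B stayed called after MmC with GDF11. CALR in MmC-/GDF11- replicate 2 was at 2292.2 CPM against 1871.9 to 1898.5 CPM in the others, and CALR in MmC+/GDF11- replicate 1 was at 1924.4 CPM against 1590.9 to 1639.1 CPM.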

How the results depend on the processing

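HLA-B stayed called in both MmC comparisons, and HLA-C in the one with GDF11, under all 29 alternatives. The calls of HLA-C and TAPBPL without GDF11 and of NLRC5 in both comparisons held in 15, 19, 19 and 16 of 29, always with the same sign. After MmC without GDF11, 4 of the 9 genes were called, against 2 with no filter on low counts and 1 with only the libraries compared, where 8655, 8386 and 7581 of all genes were called. Leaving out libraries gave 1 to 6 members and 5490 to 10004 genes without GDF11 (lowest without replicate 3 of every group, highest without replicate 1), and 3 to 5 members and 5505 to 10164 genes with it. GDF11 in young MSCs called 1 gene with DESeq2 and 0 to 1 when libraries were left out. With the replicate block, 5 and 6 members and 11066 and 11267 genes were called after MmC without and with GDF11. Besides PDIA3 without GDF11, the block added CALR with GDF11 (log2 -0.24, adjusted p = 0.0444), where the numbers were not taken to pair the libraries, and it changed no other call of a member.

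The sign changed for values near 0 that were not called. ERAP1 after MmC without GDF11 was 0.012 with RLE scaling and with DESeq2, 0.025 with upper-quartile scaling, 0.035 with the stricter filter, 0.0033 with only the libraries compared and 0.0034 with limma-voom. The interaction of CALR was 0.0093 with upper-quartile scaling, 0.0049 with no filter and 0.0025 with the stricter filter. With the replicate block and limma-voom, ERAP1 for GDF11 in senescent MSCs was -0.0067 and -0.0080, and the interaction of NLRC5 was -0.026 and -0.024.

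With libraries left out, the log2 fold change after MmC ranged from -0.0083 to 0.34 for B2M and -0.10 to 0.076 for ERAP1 without GDF11, and from -0.040 to 0.26 for B2M with it. For GDF11 in young MSCs it was -0.067 to 0.17 for B2M, -0.20 to 0.0044 for HLA-C, -0.12 to 0.13 for NLRC5, -0.12 to 0.052 for ERAP2 and -0.012 to 0.10 for CALR. For GDF11 in senescent MSCs it was -0.090 to 0.13 for B2M, -0.045 to 0.12 for HLA-B, -0.14 to 0.057 for NLRC5, -0.11 to 0.070 for ERAP1, -0.036 to 0.079 for ERAP2, -0.14 to 0.057 for TAPBPL, -0.057 to 0.087 for CALR and -0.050 to 0.051 for PDIA3. For the interaction it was -0.14 to 0.13 for B2M, -0.20 to 0.14 for NLRC5, -0.040 to 0.15 for ERAP2, -0.0071 to 0.21 for TAPBPL, -0.084 to 0.059 for CALR and -0.0017 to 0.15 for PDIA3.

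With words of 75 bases, the share on alternate contigs was 91.2% for B2M, 84.5% for HLA-C, 60.7% for HLA-B, 0.511% for PDIA3, 0.394% for CALR and 0% for NLRC5, ERAP1, ERAP2 and TAPBPL. The causes of these changes were not tested. Depth did not limit the 9 genes, but 4 replicates per group left intervals as wide as -0.26 to 0.52 (B2M), and reads of B2M, HLA-B and HLA-C lost to alternate contigs could not be measured.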
